A study of Macrobrachium nipponense with 6 samples.

Results

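The probes described here target the miRNAs of the red flour beetle, Tribolium castaneum, that carry a number in the 3800s in their name. They were picked by name alone, as probes with the beetle prefix tca- and such a number, and 214 of the 2546 miRNA probes on the array met this rule. Their names begin at 3802 and cover 98 of these numbers, with 108 probes named for the 5p arm and 106 for the 3p arm. The array was hybridised with RNA of Macrobrachium nipponense, the oriental river prawn, which is a crustacean and no insect, so each probe asks whether the prawn holds an RNA close to the beetle sequence.

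Animals of the normoxia group were kept in water with 6.5 ± 0.2 mg O2 per L, and animals of the hypoxia group for 24 h in water brought to 2.0 ± 0.1 mg O2 per L by bubbling nitrogen. The sample titles give 24 h for both groups. Each group had 3 samples. Every sample was total RNA of gill, hepatopancreas, muscle and hemocytes together, labelled with Cy3 and hybridised to an array of its own. The labels name no strain, age or sex, and they do not say whether the numbered samples of a group were taken from different prawns or pools. The spread behind each p-value may therefore be technical. In such a mixture, fewer cells of a type and less of an RNA per cell cannot be told apart.

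A miRNA is cut from the stem of a hairpin transcript. Either arm of the stem can give a mature RNA, named 5p or 3p after its side, and one arm is usually the more abundant. The mature RNA guides the silencing complex to messenger RNAs, mainly through the seed, which is bases 2 to 8 of its 5′ end. Numbers are given to miRNAs roughly in the order in which they were registered, so low numbers such as miR-1 or miR-9 tend to be old families shared by many animals. High numbers hold many RNAs found by sequencing of a single species. No function is given here for single members numbered in the 3800s.

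The sequences that carry the results are shown first, as the array files give the targets, 5′ to 3′ and with the seed in capitals. The first set holds probes that measured lower in hypoxia, together with the other arm of the first hairpin, for comparison with its partner. They were chosen after their values were seen, and none passed the adjusted p threshold. Members that measured higher in hypoxia are described further below.
tca-miR-3842-5p: aGGAGGAAaaacgagucgg
tca-miR-3842-3p: gAACGCUUcguuuuuauccuug
tca-miR-3804a-5p: uGGCACACaucaauguccacguuuuu
tca-miR-3836a-5p: aGGUCUACcucugcuuaaguuaa

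The second set holds probes that were above the detection limit on 3 arrays, the most for any member, and shows how unlike each other such targets are.
tca-miR-3888-5p: gUGCUUUGaaugucacgcc
tca-miR-3838-5p: gUUUAGCCuaagucgucuua
tca-miR-3838-3p: uUUGAGUCcgauccugucuaccugcc

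The third set pairs members with a probe outside the range that has the same seed or lies within 4 edits (substitutions, insertions or deletions) and was bright on all 6 arrays. These pairs were chosen after their values were seen, and show how much of a bright sequence a dim member can share.
tca-miR-3878-5p: uGGACGGAgaacuaauugu
isc-miR-184_R-2: uGGACGGAgaacugauaagg
tca-miR-3886-5p: uCACAGCGagcuuugacag
mse-miR-2b: uCACAGCCagcuuugaugagc
tca-miR-3804b-3p: uGGAAUGUuccauaagugugc
dme-miR-1-3p: uGGAAUGUaaagaaguauggag
tca-miR-3843-3p: uUAAAGCUaugucagcaauua
dpu-miR-9-3p: aUAAAGCUagguuaccaaaguua

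Detection is given as the scanner intensity of a spot above its background, the median of the 20 nearest empty spots, and a spot counts as detected above 3 standard deviations of the empty spots. This limit ranged from 27.8 scanner units on hypoxia 2 to 94.5 on normoxia 3. The arrays differed in it and in how many of the 2546 probes passed it, from 342 on normoxia 3 to 1001 on normoxia 2. Markers were examined for a part of the labelled tissues, with none for hemocytes and none for gill alone. Of 9 probes for miR-1, a miRNA of animal muscle, 3 were detected on all 6 arrays, and dme-miR-1-3p read 3518 to 12860 above background. For miR-133, also of muscle, 1 of 6 probes was detected on all 6, and for miR-8, a miRNA of epithelia and fat body in flies, 4 of 6. Of the nervous system markers, 8 miR-124 probes reached at most 1 array each and 5 miR-219 probes at most 2.

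At this limit the members gave little repeatable signal. No member was detected on more than 3 of the 6 arrays, 93 were detected on none, 86 on 1, 26 on 2 and 9 on 3. Among the other 177 beetle probes, 25 (14.1%) were detected on all 6 arrays, as were 292 (11.5%) of all 2546. The 1158 probes of other species with a number of 1000 or more were closer to the members, with 28 (2.42%) on all 6 and 505 on none. The highest reading of any member was 290 above background, for tca-miR-3810-3p on hypoxia 3. On the other 5 arrays that probe lay between -7.53 and 24.4. The highest reading of the other beetle probes was 18141, and that of all probes 61956.

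On single arrays the number of detected members followed the array more than the oxygen level. On normoxia 1, 2 and 3 there were 32, 64 and 2 detected members, and on hypoxia 1, 2 and 3 there were 6, 46 and 15. The ranges of the groups overlap, and the lowest and the highest count are both in normoxia. As shares of the 214, these were 15.0%, 29.9% and 0.935% in normoxia and 2.80%, 21.5% and 7.01% in hypoxia. Empty spots, which carry no probe, passed the same limit in 1.5%, 2.39% and 3.36% of cases on the normoxia arrays and in 2.12%, 0.619% and 2.65% on the hypoxia arrays. On normoxia 3 the share of members was thus below that of empty spots, and on hypoxia 1 it was near it. The counts move with the limit. Above 3 robust standard deviations of the empty spots there were 93, 123 and 5 members in normoxia and 38, 112 and 50 in hypoxia. On hypoxia 1 that is 17.8% of the members beside 5.31% of the empty spots, and on normoxia 3 2.34% beside 10.7%. With 2 standard deviations the counts were 51, 111 and 3 in normoxia and 7, 102 and 18 in hypoxia, and with 5 they were 18, 25 and 1 and 2, 3 and 10. The median member read 14.5, 46.9 and 1.56 above background in normoxia and 5.30, 17.2 and 8.28 in hypoxia, each below that array's limit.

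**Figure D1:**
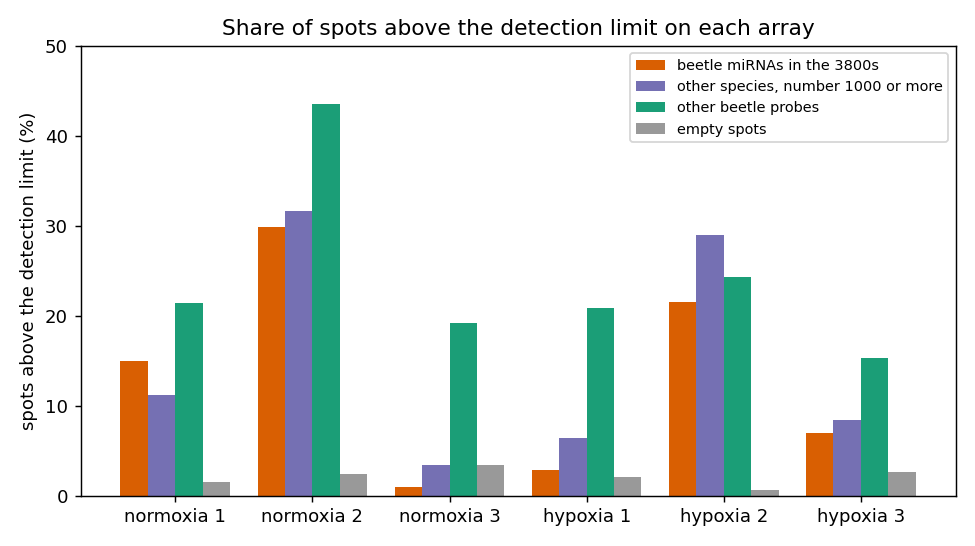
Bars give the percent of spots above the detection limit (y axis) on each of the 6 arrays (x axis) for the 214 beetle probes numbered in the 3800s, 1158 probes of other species numbered 1000 or more, 177 other beetle probes and 1130 empty spots. The members run from 0.935% on normoxia 3 to 29.9% on normoxia 2, close to the other high-numbered probes, while the other beetle probes stay at 15.3% or more.

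Arrays shared few of their detected members. Normoxia 1 and normoxia 2 shared 12 members, which is 37.5% of the 32 and 18.8% of the 64. Normoxia 2 and hypoxia 2, the arrays with the most detected members, shared 16 (25.0% and 34.8%). Within hypoxia, hypoxia 1 and 2 shared 2, hypoxia 1 and 3 shared 0, and hypoxia 2 and 3 shared 3. Of the 6 members detected on hypoxia 1, 4 (66.7%) were also detected on normoxia 2. Across the 214 members, which are not independent replicates, the rank correlation of the readings within normoxia was 0.14 for arrays 1 and 2, 0.24 for 1 and 3 and 0.20 for 2 and 3. Within hypoxia it was 0.07 for arrays 1 and 2, 0.16 for 1 and 3 and -0.23 for 2 and 3. Over all 15 pairs of arrays it ran from -0.23 to 0.44, the highest between normoxia 3 and hypoxia 1, and over the other 2332 probes from 0.40 to 0.61. Points of a pair share the array layout, and values near background hold mostly noise, so these are descriptions only.

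Both arms of a hairpin were on the array for 103 of the 110 hairpins. On normoxia 2, 30 of their 5p and 33 of their 3p probes were detected, and 10 hairpins had both. On hypoxia 2 there were 19 and 24, with 10 hairpins having both, and on normoxia 1 there were 17 and 15, with 5 having both. Hypoxia 1 and 3 had no hairpin with both arms. The arms of a hairpin lie mostly in neighbouring rows of the same column of the array, and the part of place in these shared readings was not tested.

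The readings of the members differed by their column, on arrays of both groups. The members stand in columns 10 (94 probes), 20 (27) and 29 (92) of the 31 columns, with 1 in column 12. On normoxia 2, 24.5%, 40.7% and 32.6% of the members in columns 10, 20 and 29 were detected. On hypoxia 2, 36 of the 46 detected members were in column 29 (39.1% of that column), against 8 in column 10 (8.51%). The median reading there was 25.3 in column 29, 11.8 in column 10 and 4.395 in column 20. On hypoxia 3 columns 29 and 10 had the other order, with medians of 0.14 in column 29 and 12.7 in column 10. High-numbered probes of other species within 1 column of column 29 had medians of 22.8 on hypoxia 2 and -4.11 on hypoxia 3. Within 1 column of column 10 their medians were 24.3 and 9.23. On hypoxia 2, 31.1% of them were detected near column 10 and 30.5% near column 29. The column difference of the members on hypoxia 2 was thus not seen in these probes, while on hypoxia 3 their medians had the same order. Empty spots lie in the upper and lower rows of the array, with 0 in the 40 rows from 41 to 80, and the 20th nearest to a member was 11.4 spots away at the median and up to 31.0. With the lower quartile of the 60 nearest miRNA probes as the background, a choice made after seeing the data, the count of detected members on hypoxia 2 was 4 in place of 46. On normoxia 2 it was 33 in place of 64. It was 24 on normoxia 1, and unchanged at 2, 6 and 15 on normoxia 3, hypoxia 1 and hypoxia 3. With the median of all empty spots the counts on hypoxia 2 and normoxia 2 were 6 and 36.

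**Figure D2:**
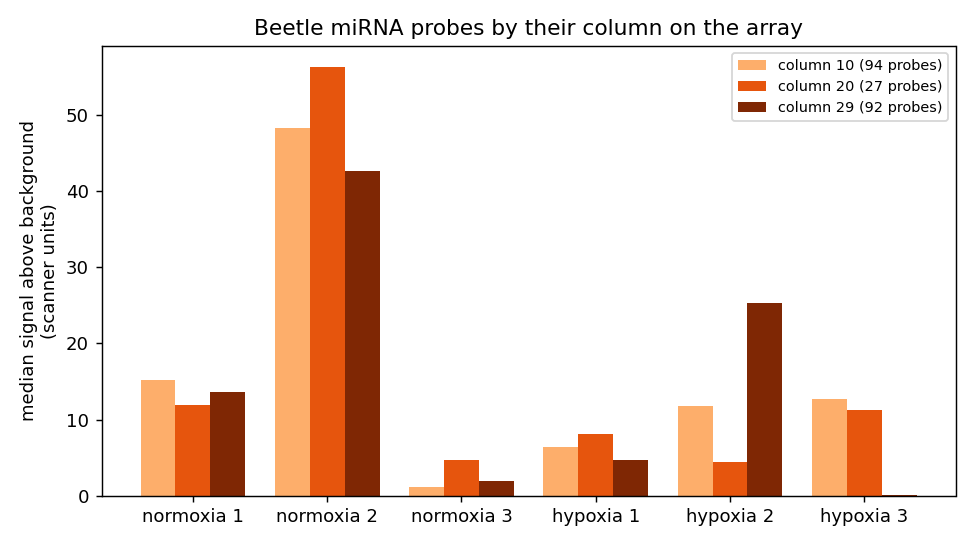
Bars give the median signal above background in scanner units (y axis) of the members in columns 10, 20 and 29 of the array, on each of the 6 arrays (x axis). On hypoxia 2 column 29 stands at 25.3 and column 10 at 11.8, and on hypoxia 3 column 29 stands at 0.14 and column 10 at 12.7.

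Detected and undetected members had the same median length and GC content. Targets were 18 to 26 bases long, and the median was 21 bases for the 121 members detected on at least 1 array and 21 for the 93 detected on none. Their GC content ran from 13.6% to 89.5%, with a median of 43.5% in both sets. The 214 targets were all different and had 200 distinct seeds, and 23 members shared a seed with another member. The largest such group was tca-miR-3851a-5p, tca-miR-3851c-5p, tca-miR-3851e-5p and tca-miR-3851f-5p, of which 3 were detected on at least 1 array. The 3 members of the tca-miR-3811 group that share a seed (a, b and c of the 5p arm) were detected on none. Probes outside the range were far in sequence: the nearest was 4 to 10 edits away, with a median of 7, and 2 members had a neighbour within 4 edits.

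Members that share a seed with a bright probe, or lie close to it in sequence, were far dimmer than that probe, and 3 of these 5 passed the limit, on 1 array each. A seed shared with a probe detected on all 6 arrays was found for 4 members. tca-miR-3878-5p has the seed of miR-184, a conserved miRNA of insects and vertebrates, and is 4 edits from isc-miR-184_R-2. It read 80.1, 4.69 and 4.17 above background in normoxia and 25.9, 18.0 and 3.29 in hypoxia, while isc-miR-184_R-2 read 745 to 3371. Only normoxia 1 passed the limit. tca-miR-3886-5p lies 4 edits from mse-miR-2b, of the miR-2 family, which acts on cell death genes in flies. It read 11.9, 74.2 and 9.11 in normoxia and 3.21, 3.23 and 9.56 in hypoxia, while mse-miR-2b read 787 to 4659. Normoxia 2 passed its limit of 67.6. tca-miR-3804b-3p has the seed of dme-miR-1-3p, and read at most 28.7, on hypoxia 2, just above the limit of 27.8 there. tca-miR-3843-3p and tca-miR-3893-3p have the seed of dpu-miR-9-3p, which read 925 to 2594, and were detected on no array. None of these 5 members gave a bright reading on any array.

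**Figure D3:**
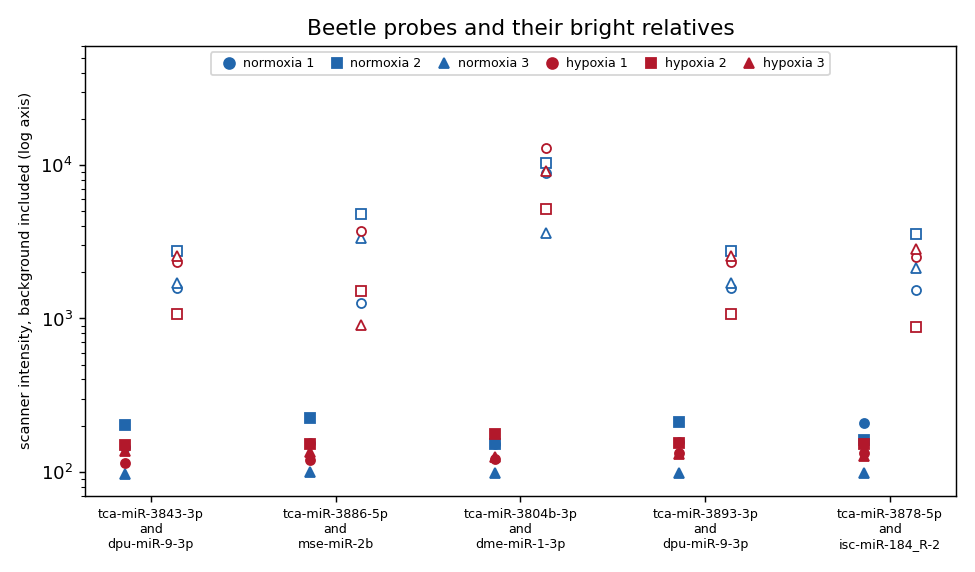
Points give the scanner intensity with background included (y axis, log scale) on the 6 arrays for 5 members (filled) and a bright relative of each (open), blue for normoxia and red for hypoxia, with circles, squares and triangles for samples 1, 2 and 3. Every open point lies above every filled point.

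The comparison of hypoxia with normoxia could see little of this set. Log2 levels were taken after normexp background correction with an offset of 50 and quantile normalization, and limma tested the probes that passed the limit on every array of either group. Of the 339 probes tested, 1 was a member, 29 were other beetle probes and 40 were high-numbered probes of other species. No probe passed the adjusted p threshold of 0.05 (0 of 339, which is 0%, limma, smallest adjusted p = 0.730), and 15 (4.42%) had an unadjusted p under 0.05.

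The tested member was tca-miR-3842-5p. It read 149, 126 and 158 above background in normoxia and 9.97, 25.5 and 3.65 in hypoxia. The 3 normoxia readings lay above the limit and all 3 hypoxia readings below it, and the groups did not overlap. Of all 2546 probes it alone had this split (0.0393%), and 0 (0%) had the opposite. On the log2 scale it measured 8.09, 7.03 and 8.14 in normoxia, a mean of 7.75 ± 0.62 (SD, n = 3), and 6.59, 6.59 and 6.36 in hypoxia, a mean of 6.51 ± 0.13 (SD, n = 3). The difference, hypoxia minus normoxia, was -1.24 (SE 0.36, 95% interval -2.12 to -0.36), with an adjusted p of 0.730 (limma), past no threshold. The probe entered this fit only through normoxia, the group where it is high, so the difference and its interval are conditioned on that filter. Against a stand-in for hypoxia, the higher of its own level and the lowest detected level on each array, normoxia was at least 1.70-fold higher, a bound on the measured means that leaves out their sampling error. With 3 arrays a group, Fisher's exact test on such a split gives 0.1, two-sided, as its smallest p.

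The reading of hypoxia 2, 25.5, lay just under that array's limit of 27.8. With a limit of 2 standard deviations it was detected there, and the split was lost. The difference was -3.0 with plain background subtraction and -2.23 in the authors' deposited values, and -1.60 to -1.05 with single arrays left out. Among the 8 spots around it, the brightest read 232 on normoxia 1 and 235 on normoxia 3, below the probe's own scanner intensities of 277 and 260. On normoxia 2 the brightest read 551 beside its 319. The bright neighbour on normoxia 3 was the other arm, tca-miR-3842-3p, which read 17.9, 57.9 and 132.9 above background in normoxia and 4.71, 19.9 and 8.06 in hypoxia. These were the 2 members detected on normoxia 3, and they lie in adjacent rows of column 29. The probe outside the range nearest in sequence to tca-miR-3842-5p was 7 edits away.

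The other named members could be described but not tested in that fit. They were taken in order of the number of arrays they were detected on and of their mean signal, with those detected on at least 2 arrays of 1 group and on none of the other. Over all probes, 35 of 2546 (1.37%) were detected on 2 or more normoxia arrays and no hypoxia array, as were 8 of the 214 members. The reverse held for 30 of 2546 (1.18%) and for 1 of the 214 members, tca-miR-3834-5p. Normoxia 1 and 2 account for every member of the first kind apart from tca-miR-3842-5p, and those arrays had the most detected members of their group.

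tca-miR-3804a-5p read 95.1, 142 and 35.2 in normoxia and 4.71, 24.9 and 4.62 in hypoxia. The normoxia readings were all above the hypoxia ones, and that of normoxia 3 was below its limit. Its log2 levels were 7.45, 7.21 and 7.31 in normoxia, a mean of 7.32 ± 0.12 (SD, n = 3), and 6.44, 6.58 and 6.39 in hypoxia, a mean of 6.47 ± 0.10 (SD, n = 3). In a fit over all 2546 probes its difference was -0.85 (95% interval -1.14 to -0.57). That fit gave it the smallest p of all probes, and it did not pass (limma, adjusted p = 0.768). It passed the detection limit only in normoxia, the group where it is high. The interval takes no account of that or of its place as the smallest p. In the authors' deposited values it was 116, 38.2 and 60.1 in normoxia and 6.32, 11.3 and 0.01 in hypoxia. The brightest of the 8 spots around it read from 295 on normoxia 2 to 2503 on hypoxia 1 in scanner intensity, and its part in the readings was not tested.

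tca-miR-3836a-5p read 120, 152 and 5.47 in normoxia and -1.61, 24.9 and -10.4 in hypoxia. Normoxia 1 and 2 were high, and normoxia 3 was within the range of hypoxia before normalization. Its log2 difference was -0.98 (95% interval -1.70 to -0.25) and did not pass in the fit over all probes (limma, adjusted p = 0.898). This probe too passed the detection limit only in normoxia, and its interval takes no account of that. tca-miR-3836b-5p, named here after its values were seen, read 89.4, 62.8 and 2.50 in normoxia and 4.71, 24.2 and 4.89 in hypoxia, and was above the limit on normoxia 1 alone. Its log2 levels did not overlap between the groups, with a difference of -0.38 (95% interval -0.96 to 0.20). tca-miR-3836b-3p, the other arm, read 39.7, 83.3 and -3.77 in normoxia and 24.1, 25.5 and -1.42 in hypoxia, so its groups overlapped. It shares its seed with tca-miR-3836a-3p, detected on no array, and with 23 probes outside the range, none of them detected on all 6 arrays.

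Several of the 9 members detected on 3 arrays had their high values spread over both groups. tca-miR-3838-5p read 22.7, 137 and 86.0 in normoxia and 135, 34.0 and -2.47 in hypoxia. tca-miR-3888-5p read 87.3, 89.5 and 1.74 in normoxia and 84.6, 1.79 and 2.81 in hypoxia. tca-miR-3840-3p read 13.4, 90.5 and 5.25 in normoxia and 119, 31.7 and -6.59 in hypoxia. In each of these probes samples of both groups were high, and the spread within a group was larger than the difference between the group means.

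A few members had their highest reading on hypoxia 3. tca-miR-3885-3p read 229 there, tca-miR-3834-5p 187, tca-miR-3841-5p 165 and tca-miR-3830-3p 126. On hypoxia 1 and 2 the same probes read, in that order, 10.03 and 6.14, 14.7 and 35.6, 3.85 and 16.7, and 5.14 and 32.8. Their highest normoxia readings were 106.8, 35.2, 117 and 63.6, all on normoxia 2. Their log2 differences were 0.63, 0.64, 0.23 and 0.27. Without hypoxia 3 they were -0.28, 0.00, -0.41 and -0.12, so they rest on that array.

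tca-miR-3802-3p was high on normoxia 1 and 2, at 120 and 134, and read 29.3 or less on the other 4 arrays. tca-miR-3840-5p was high on the same arrays, at 150 and 73.9, and tca-miR-3885-5p, tca-miR-3807-5p and tca-miR-3875-5p read 40.5 to 126 on them. On hypoxia 1, tca-miR-3885-5p read 42.7 and tca-miR-3807-5p 45.9. Both readings lay under that array's limit of 73.2 but above the limit of 35.6 on normoxia 1. Their detection in normoxia alone thus went with the unequal limits. tca-miR-3875-5p read 23.8 or less on the hypoxia arrays, and tca-miR-3840-5p 34.6 or less. tca-miR-3835-3p was high on normoxia 2 at 146 and hypoxia 3 at 96.0, tca-miR-3838-3p on normoxia 1 and 2 at 50.5 and 87.3, and tca-miR-3890-5p on normoxia 2 and hypoxia 1 at 173 and 87.5. On hypoxia 2, where the limit was 27.8, tca-miR-3802-3p, tca-miR-3835-3p and tca-miR-3838-3p were detected too, at 29.3, 37.1 and 38.5. tca-miR-3815-5p, which shares a seed with tca-miR-3840-5p, was detected on no array. The lowest adjusted p among these in the fit over all probes was 0.898 (limma).

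**Figure D4:**
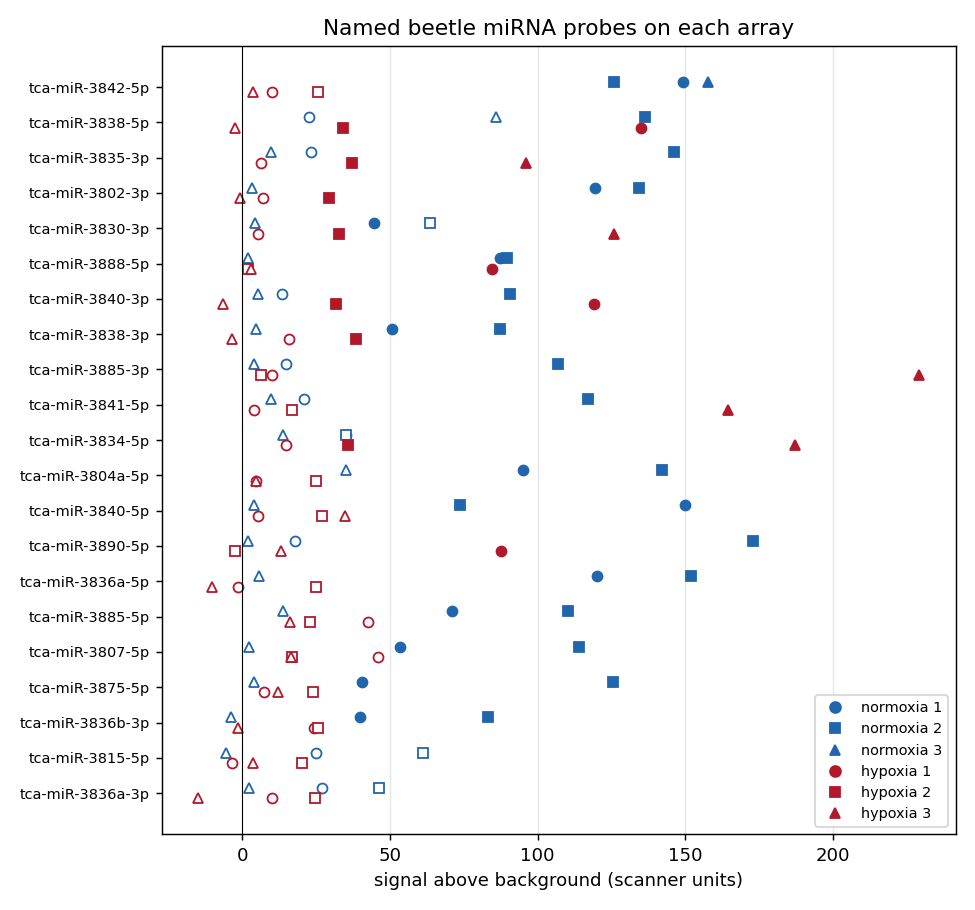
Each row is a member described in the text and each point its signal above background in scanner units (x axis) on 1 array, blue for normoxia and red for hypoxia, with circles, squares and triangles for samples 1, 2 and 3. Filled points are above that array's detection limit; tca-miR-3842-5p has all 3 normoxia points filled, at 126 to 158, and all 3 hypoxia points open, at 3.65 to 25.5.

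Over the whole set, with all 2546 probes fitted, no member passed (0 of 2546 probes, 0%, limma, smallest adjusted p = 0.768). An unadjusted p under 0.05 was found for 5 of the 214 members (2.34%) and for 74 of all probes (2.91%), a share near that background. Of these, 4 were lower in hypoxia, against 1.57% of all probes, and 1 was higher, against 1.34%. The 5 were tca-miR-3804a-5p, tca-miR-3842-5p and tca-miR-3836a-5p, described above, and, named after their values were seen, tca-miR-3833-3p at -0.45 and tca-miR-3820-5p at 0.55 (log2). The groups did not overlap, with hypoxia lower, for 13 members (6.07%) and for 4.4% of all probes. With hypoxia higher this held for 5 members (2.34%) and for 5.54% of all probes. A difference of at least 2-fold was measured for 37 of all probes (1.45%) and for 2 members (0.935%), tca-miR-3842-5p and tca-miR-3810-3p, and the latter, at 1.17, rested on hypoxia 3. The median standard error of a member was 0.18 (log2). The offset compresses the differences of dim probes, so a low spread here does not show an equal level.

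The differences of the set leaned below 0. Of the 214 members 70 lay above 0 and 144 below, with a median of -0.09, while of all 2546 probes 1244 lay above 0, with a median of -0.01. The other beetle probes had 61 of 177 above 0 and a median of -0.06. By column, 32 of 94 members lay above 0 in column 10, 7 of 27 in column 20 and 30 of 92 in column 29. High-numbered probes of other species had 32 of 61 above 0 within 1 column of column 10 and 14 of 59 within 1 column of column 29. Near column 29 these probes leaned below 0 as the members did, and near column 10 they did not. The part of place on the array in the lean was not tested. With 75th percentile scaling the median of all probes was -0.25, and with no scaling it was -0.31. Relative to the median of all probes, 71 members lay above it in the main setting and 65 to 88 in the alternatives.

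**Figure D5:**
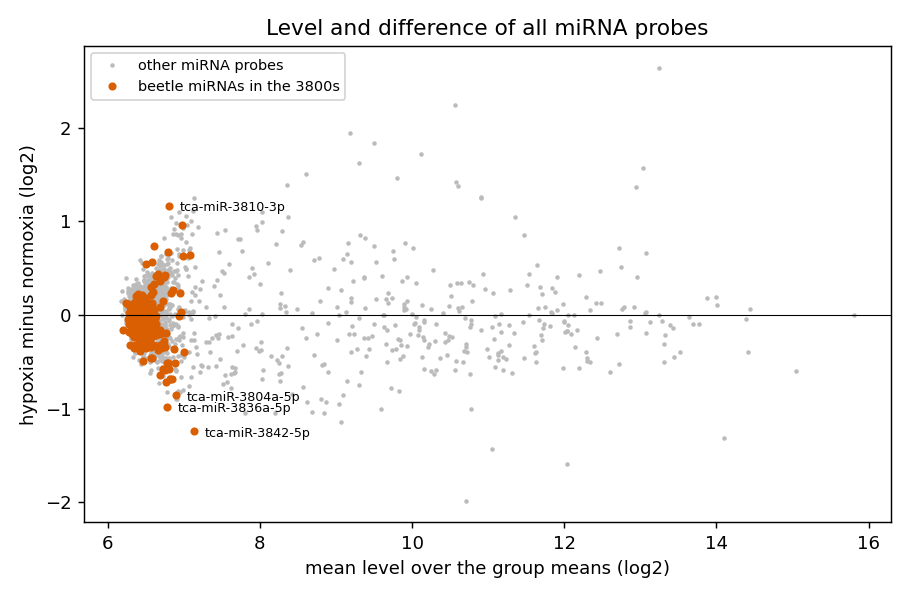
Each point is a probe, with its mean level over both groups (x axis, log2) and its difference, hypoxia minus normoxia (y axis, log2). The 214 members (orange) gather at the low end of the levels and run from -1.24 for tca-miR-3842-5p to 1.17 for tca-miR-3810-3p.

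The authors' deposited values, whose background and scaling steps the sources used here do not name, also put most members near 0. Their median over the members was 4.67, 1.24 and 7.72 in normoxia and 2.92, 0.03 and 0.28 in hypoxia. Over all probes the median was 4.365, 4.105 and 6.44 in normoxia and 5.89, 0.04 and 2.945 in hypoxia. On normoxia 2 and hypoxia 3 they list 91 and 80 members at exactly 0, as they do 810 and 825 of all probes. On hypoxia 2 they list 0 members at exactly 0, though the medians there, 0.03 and 0.04, lie next to it. Taking 32 as a limit, 29, 18 and 6 members were above it in normoxia and 12, 4 and 18 in hypoxia. At that limit tca-miR-3842-5p and tca-miR-3804a-5p were above it on all 3 normoxia arrays and on no hypoxia array. The share of all probes with this split at that limit was not counted, and the values come from the same arrays. Neither probe passed in a fit of these values (limma, adjusted p = 0.556 and 0.571). tca-miR-3842-5p stood there at 186, 60.5 and 256 in normoxia and 12.5, 7.91 and 0.01 in hypoxia.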

How the data were processed

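The members and lists were chosen with earlier results of these data known. The deposited scanner tables hold the median spot intensity of Cy3 (LC Science labelling, per the labels' protocols) on a linear scale, with no background subtracted, per the file headers and the empty spots. A second deposited table gives intensity after the authors' background subtraction and scaling, inferred from its values; the methods are not stated in the sources used here. Its bright probes (scanner intensity above 1000) followed the scanner values (log2 r from 0.995 to 1.00 per array), so it was read as linear. Groups came from the sample titles.

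Each array had 3968 spots, 1130 of them empty, and each miRNA probe had 1 spot. Background was the median of the 20 nearest empty spots, normexp (limma 3.58.1, R 4.3.3, offset 50) was fitted on all spots, and after removal of control spots the arrays were brought to common quantiles and put on the log2 scale. Probes detected on all 3 arrays of a group were tested with lmFit and eBayes, and p-values were adjusted by Benjamini-Hochberg. A second fit took all 2546 probes, and gives the differences of members outside the first. The fits were tested on simulated data.

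Named members followed a rule: those tested, further ones by number of arrays and mean signal up to 16, those detected on 2 or more arrays of 1 group and none of the other, and those sharing a seed with these. Edit distances were computed with edlib. The number of arrays limits the precision. A member that the rule names is not reported here.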

Additional observations from a re-analysis of the deposited data

How the results depend on the processing

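Across 22 alternatives the count of changed members stayed at 0 (limma), and that of all changed probes at 0 except without hypoxia 3, where it was 1, a probe outside the range; single arrays left out gave 0 to 1. At an unadjusted p under 0.05 the main fit had 15 probes, 1 of them a member. The number of members tested was 1, 10 with a robust estimate of the empty spots' spread, 3 in the authors' values and, over fits lacking an array, 1 to 12 (12 without normoxia 3, 4 without hypoxia 1, 3 without hypoxia 3). Members detected in 1 group only numbered 1, 0 with a limit of 2 standard deviations or a robust one, 2 in the authors' values and, over fits lacking an array, 1 to 8 (8 without normoxia 3, 2 without hypoxia 1). Members detected on at least 1 array numbered 121, 79 with a background from all empty spots, 69 from nearby dim probes, 52 with a limit of 5 standard deviations, 193 with a robust one and 66 in the authors' values. Without normoxia 2 the number was 86, the lowest with single arrays left out, and without normoxia 3 it was 120, the highest. Members with a neighbour outside the range numbered 2 within 4 edits, 0 within 2 and 36 within 6. The cause of these moves was not tested. The difference of tca-miR-3842-5p was below 0 in all 22 alternatives (adjusted p = 0.177 with array weights to 0.9996 with no scaling, limma). This sign was largely fixed in advance. The groups of this probe do not overlap, so leaving out 1 array could not turn it. Settings that change only the detection limit or the fitted probes keep the same difference. Same-numbered arrays of the 2 groups did not deviate together (r = -0.25, -0.27 and -0.06 over the tested probes). Different-numbered arrays gave r from -0.002 to 0.24. Deviations from a group mean sum to 0, so these values depend on each other and cannot settle whether arrays were paired. The numbers were not read as pairs. A fit with the replicate number as a block gave 0 changed probes, 0 changed members and -1.24 for tca-miR-3842-5p (limma, adjusted p = 0.987), and changed no call. Signal over background limits all of these results, since on each single array most members lay below its limit of 3 standard deviations.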
